A study of Mus musculus with 6 samples.

Results

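The Ifi200 genes are a cluster of interferon-inducible genes on mouse chromosome 1, and 10 of them were followed here across 6 samples: Aim2, Ifi213, Ifi209, Ifi207, Ifi204, Mndal, Ifi211, Ifi203, Ifi202b and Ifi205. They are 10 of the 46983 genes listed in the count tables, and all 10 were matched by identifier to the GENCODE annotation of GRCm38. The set was chosen by its place around Ifi202b, which was selected on its read counts because it had reads only in wild-type samples. The difference between the genotypes therefore chose Ifi202b, and the values of the members in that comparison are given as a description without a test. The samples were RNA of myeloid colonies grown from lineage-depleted bone marrow of C57BL/6 mice, whose age is given as postnatal weeks 8 to 11 in one label and 8 to 10 in another. Colonies grew for 6 to 7 days in methylcellulose with stem cell factor and the interleukins IL-3 and IL-6. The KO group held 3 samples labelled Psip1-KO, whose mice the series design names PsipVav/Vav. Vav is a gene of blood cells whose promoter is widely used to drive Cre there, and the labels say no more of the deletion. The WT group held 3 samples labelled wild type, whose mice the design gives as PsipFl/Fl, a floxed allele by its name. The labels do not say how many animals each sample came from, so the spread between samples may be in part technical. Psip1 encodes LEDGF/p75, which tethers the MLL complex to chromatin, and the series set its need in blood formation beside that in MLL-rearranged leukemia.

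Proteins of this family carry a HIN domain, which binds double-stranded DNA, and most also carry a pyrin domain, through which they bind other proteins. Myeloid cells express several of them at rest, and interferons raise many of them through STAT and IRF factors that bind the interferon-stimulated response element of their promoters. AIM2 is the best known member and assembles an inflammasome on DNA in the cytosol, while p204 takes part in DNA sensing ahead of STING. The Ifi202b product p202 lacks a pyrin domain and has a pair of HIN domains with which it restrains AIM2. Ifi202b is also known for strain dependence, since NZB mice express it strongly and C57BL/6 mice hardly do.

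Depth set what could be seen. The 3 KO samples held 7056614 to 15569088 reads on genes, and WT replicates 1 and 2 held 14332364 and 10418101, while WT replicate 3 held 27909 in its 2 sequencing runs together. In that shallow sample a count of 0 allows up to 89.6 CPM, the level of 3 reads. CPM here are reads per 1000000 reads on genes of the same sample, with that total scaled by edgeR's TMM factor, which allows for differences in composition. Intervals and limits cover counting error only. Psip1, as the check of the genotype, stood at 14.8, 17.6 and 16.3 CPM in the KO samples, against 89.3 and 70.0 CPM in WT replicates 1 and 2, and WT replicate 3 held 3 Psip1 reads. The KO samples were thus below both deep WT samples (edgeR quasi-likelihood test, log2 fold change -2.32, SE 0.32, Benjamini-Hochberg adjusted p = 0.0599, which misses the threshold of 0.05). These reads come from the whole gene, deleted part or not.

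Per 1000000 gene reads without that scaling, the 10 members together took 103.6, 166.9 and 145.7 reads in KO replicates 1, 2 and 3, against 158.9 and 76.4 in WT replicates 1 and 2. The narrowest and widest 95% Wilson intervals, 71.3 to 81.9 in WT replicate 2 and 157.7 to 176.7 in KO replicate 2, are small beside the gap between the 2 WT samples. The WT samples thus enclosed KO replicates 1 and 3, and KO replicate 2 lay slightly above WT replicate 1. WT replicate 3 held 1 read of the whole family, on Ifi207, so its members are compared below over the 5 deep samples. Aim2 alone made up 61.4%, 63.4% and 53.0% of the family's reads in the KO samples, against 47.2% and 62.3% in the deep WT samples. Of the 10 members, 5 passed the low-count filter of the fit (Aim2, Ifi207, Ifi204, Mndal and Ifi203) and 5 did not. Ifi202b did not pass because it had reads in 2 samples only.

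Because the family arose by duplication, its genes share sequence, and a read that fits 2 of them equally well is counted for neither. The share of each member's annotated transcript stretches of 50 bases that also occur in transcripts of another gene was 72.8% for Ifi211, 33.7% for Ifi209, 20.0% for Ifi204, 19.6% for Mndal and 18.6% for Ifi205. It was 15.6% for Ifi213, 12.4% for Ifi203, 7.29% for Ifi207 and 0.742% for Aim2. For Ifi202b it was 0 of 1648 stretches. Counts of Ifi211 and Ifi209 are therefore the most uncertain and those of Ifi202b and Aim2 the least so, as far as annotated transcripts go, since copies outside the annotation were not searched. The longest run that the coding sequence of Ifi202b shares with Mndal, Ifi211 and Ifi205 is 30 bases, at bases 239 to 268 of its 1335 coding bases, and it is shown because it is the closest Ifi202b comes to its relatives.
Shared run of Ifi202b, Mndal, Ifi211 and Ifi205: agaacatgtttcatgctacagtggctacag
By contrast, Ifi211 and Ifi205 share a coding run of 495 bases, Ifi209 and Ifi214 one of 253 and Ifi204 and Ifi211 one of 223. Mndal and Ifi203 also overlap on the chromosome. On the same strand, exons of Ifi203 and of the annotated gene Gm38050 together cover 4.27% of Mndal's exon bases. Exons of Mndal cover 0.552% of those of Ifi203.

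**Figure D1:**
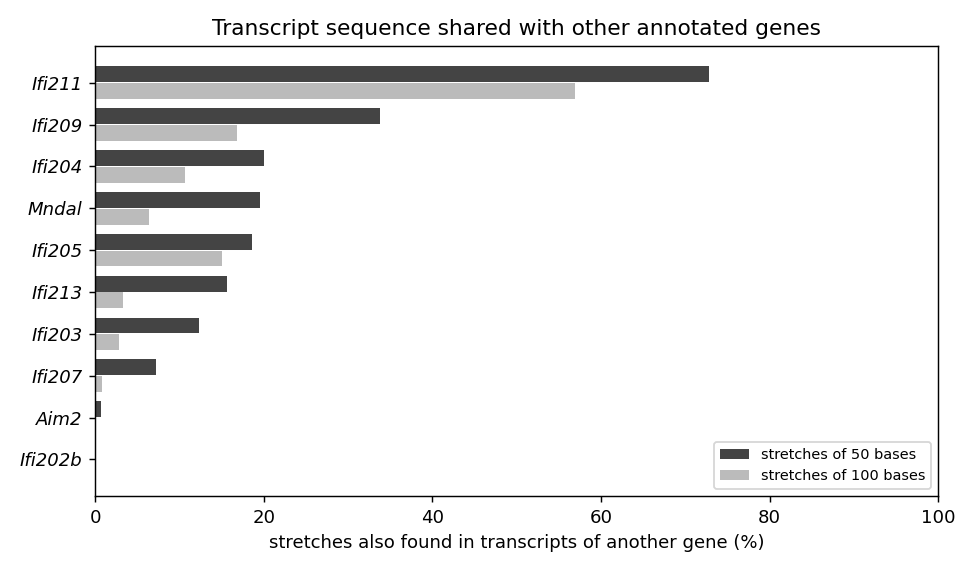
Bars give, for each member, the percentage of the 50-base (dark) and 100-base (light) stretches of its annotated transcripts that also occur in transcripts of another gene. Ifi211 stands highest with 72.8% at 50 bases, and Ifi202b has none.

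Strand made little difference to these counts. Over all samples the members held 7837 reads on the strand expected for the kit and 18 on the opposite strand. Counting without strand changed no member by more than 4 reads in any sample. Ifi202b had 148 reads with strand and 150 without.

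Promoters are shown because the family is known for its response to interferon. RefSeq windows of 250 bases before to 50 after the annotated start (build GRCm38.p6) were given for 9 members and 3 further Ifi200 genes. They were searched on both strands for the core of the interferon-stimulated response element, a GAAA followed after any 2 bases by another GAAA, and for the gamma-activated site, a TTC followed after any 3 bases by GAA. The first is present in 3.44% and the second in 8.30% of 32851 mouse promoter windows of that length. The core occurred in 6 of the 9 members and in 10 of the 14 windows of the 12 genes. In the lines below, which run in the direction of the gene, capitals mark it.
Ifi213, chr1:173599321-173599360, minus strand: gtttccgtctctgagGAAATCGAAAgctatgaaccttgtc
Ifi207, chr1:173741826-173741865, minus strand: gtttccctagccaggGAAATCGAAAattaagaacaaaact
Mndal, chr1:173880199-173880238, minus strand: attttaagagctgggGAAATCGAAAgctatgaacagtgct
Ifi211, chr1:173913059-173913098, minus strand: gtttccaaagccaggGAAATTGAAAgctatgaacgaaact
Ifi203, chr1:173942503-173942542, minus strand: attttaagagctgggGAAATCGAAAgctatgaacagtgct
Ifi205, chr1:174031865-174031904, minus strand: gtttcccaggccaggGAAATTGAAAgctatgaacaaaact
The match begins 35 to 41 bases before the start in Ifi207, Mndal, Ifi211 and Ifi203, 73 before it in Ifi213 and 134 before it in Ifi205, which has another match on the opposite strand after its start. The printed 40-base lines of Mndal and Ifi203 have the same letters. Of the 12 family genes, 7 have TC and 2, Ifi211 and Ifi205, have TT between the GAAA repeats of the core.

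The windows of Ifi202b, Aim2 and Ifi209 do not hold these letters of the core. That of Ifi202b, shown whole because it differs from its neighbours, holds 1 gamma-activated site, in capitals, that begins 148 bases before the start.
Ifi202b, chr1:173982795-173983094, minus strand: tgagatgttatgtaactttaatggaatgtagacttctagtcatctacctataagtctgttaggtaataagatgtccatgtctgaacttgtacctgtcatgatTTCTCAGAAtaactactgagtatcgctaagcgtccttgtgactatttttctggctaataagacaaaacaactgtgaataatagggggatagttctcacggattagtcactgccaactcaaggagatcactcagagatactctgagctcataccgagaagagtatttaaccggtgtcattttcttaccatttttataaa
Ifi203, chr1:173942443-173942742, minus strand, with its response element in capitals: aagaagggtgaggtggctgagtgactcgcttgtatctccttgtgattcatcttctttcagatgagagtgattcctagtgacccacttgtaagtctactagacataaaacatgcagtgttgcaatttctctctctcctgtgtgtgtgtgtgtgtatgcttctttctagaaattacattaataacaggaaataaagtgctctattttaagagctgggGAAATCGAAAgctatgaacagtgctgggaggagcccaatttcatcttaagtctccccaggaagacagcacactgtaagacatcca
The first 30 transcribed bases of the windows of Ifi202b, Ifi207 and Ifi209 were not found in their GENCODE transcripts, and neither were those of the other Ifi203 window. For Ifi202b, Ifi207 and Ifi209 the annotations place the start differently, and a different start would move the window and the distances above. For the other Ifi203 window the missing match does not show a different start. These matches describe letters of the reference genome, not binding, and the sequence carried by the animals was not analysed here.

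Ifi202b (ENSMUSG00000026535.9, minus strand of chromosome 1, 173962568 to 173982744, GRCm38), whose product restrains AIM2, had 0, 0 and 0 reads in KO replicates 1, 2 and 3, against 112 and 36 reads in WT replicates 1 and 2 and 0 in WT replicate 3. In CPM the deep WT samples stood at 8.13 and 3.52. No KO sample held a read, and both deep WT samples did, so the groups did not overlap among the deep samples. The 3 KO samples held 35339724 gene reads in all, in which a count of 0 allows up to 0.0878 CPM over the group. Taking the WT level of 6.16 CPM over the group as it stands, this limit puts Ifi202b at least 70.2-fold lower in KO than in WT. The bound leaves out counting error in WT and the gap between the 2 deep WT samples. The bound was 40.0-fold without WT replicate 1, 92.4-fold without WT replicate 2, 44.1-fold without KO replicate 1, 57.2-fold without KO replicate 2 and 39.1-fold without KO replicate 3. WT replicate 3 bears on neither side, as its 0 is within what its depth allows. This pattern is what chose the gene, and nothing is tested on it.

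Among the 11727 genes with at least 10 reads in each of the deep WT samples, Ifi202b was the 1 gene with 0 reads in every KO sample. The genes most like it were ranked by the lower of the 2 deep WT values over the highest KO value, in CPM, with a KO count of 0 taken as 3 reads. Ifi202b itself ranked 3 with a ratio of 7.43, which is set by the 3 reads put for its 0 in KO replicate 2. The 5 nearest were Gm9025 (11.5), Ctse (8.50), Psma8 (6.76), Psip1 itself (3.99) and Hoxa9 (3.36). Gm9025 is a processed pseudogene on chromosome 13, and Psma8 lies on chromosome 18. Ctse, the cathepsin E gene, lies on chromosome 1 like Ifi202b, at 131638306 to 131675505. Psma8, which encodes a proteasome subunit known from testis, had 3, 1 and 3 reads in KO and 22 and 19 in the deep WT samples. Hoxa9 had 2, 0 and 0 reads in KO and 22 and 53 in the deep WT samples. Its ratio is also set by the 3 reads put for its 0 in KO replicate 2, so these ranks depend on that choice. This likeness rests on 5 samples and is a description. No gene other than Ifi202b among these 6 lies in the Ifi200 cluster.

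The level of Ifi202b can be set against its neighbours within each sample, which removes depth. For every 100 reads of Ifi203, the nearest family gene on the chromosome, Ifi202b had 0 reads in each KO sample, with upper bounds of the exact 95% interval at 5.49, 6.81 and 3.04. The deep WT samples had 54.6 (43.0 to 69.1) and 85.7 (53.4 to 137.1). Against Mndal the KO samples again had 0, with upper bounds of 5.75, 5.33 and 3.12, and the deep WT samples had 55.2 (43.4 to 69.8) and 53.7 (34.8 to 81.7). The intervals of the 2 WT samples overlapped for Ifi203 and for Mndal. Against Ifi207 the KO samples had 0, with upper bounds of 1.55, 1.90 and 0.560, and the deep WT samples had 22.9 (18.4 to 28.1) and 47.4 (30.9 to 71.3), which did not overlap. Against Aim2 the KO samples had 0 and the deep WT samples 10.4 (8.50 to 12.7) and 7.26 (5.02 to 10.2). These ratios describe the counts that chose the gene. Over the KO samples together, 0 Ifi202b reads stood beside 248 reads of Ifi203 and 257 of Mndal.

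**Figure D2:**
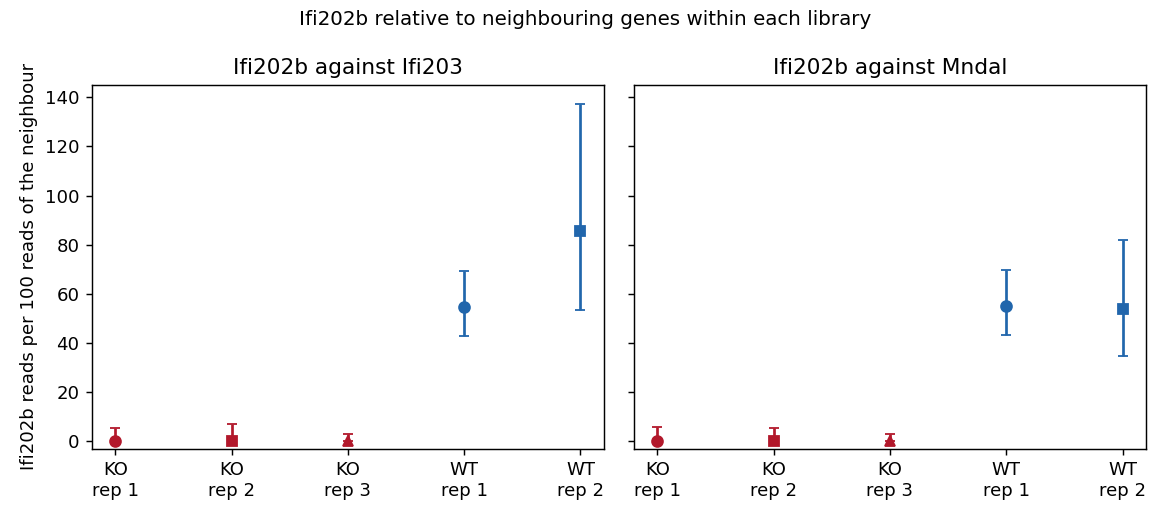
Points give Ifi202b reads per 100 reads of Ifi203 (left) or Mndal (right) in each deep sample, KO left of WT, and bars are exact 95% intervals for counting error. The KO points lie at 0 with limits of at most 6.81, and the WT points lie at 53.7 to 85.7.

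Aim2, Ifi207 and Ifi204 had fitted log2 fold changes above 0, and in none of them were the groups apart. Aim2 (173350879 to 173466040, plus strand), the sensor that assembles the inflammasome, stood at 63.6, 118.2 and 79.2 CPM in the KO samples, against 78.0 and 48.6 CPM in the deep WT samples. KO replicate 2 was highest, WT replicate 2 lowest, and WT replicate 1 lay among the KO samples. The fitted log2 fold change was 0.57 (SE 0.43), with 0.29 without KO replicate 2 and 1.05 without WT replicate 1. Ifi207 (173723427 to 173741747, minus strand) stood at 18.9, 31.0 and 43.6 CPM in KO, against 35.6 and 7.44 CPM in WT. WT replicate 2 held far less than any other sample, and WT replicate 1 lay between KO replicates 2 and 3, so the groups overlapped. Its log2 fold change of 0.51 (SE 0.58) turned to -0.15 without WT replicate 2 and was 1.998 without WT replicate 1. Ifi204 (173747293 to 173766943, minus strand), which encodes the DNA sensor p204, stood at 9.20, 15.8 and 8.45 CPM in KO, against 9.72 and 6.66 CPM in WT. Only KO replicate 2 exceeded both WT samples, and the log2 fold change was 0.47 (SE 0.46), or 0.14 without that sample.

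Mndal and Ifi203, the family genes nearest to Ifi202b on its lower side together with Ifi211, had fitted values below 0. Mndal (173849126 to 173942491, minus strand) stood at 5.19, 11.2 and 7.92 CPM in KO, against 14.7 and 6.56 CPM in WT. Ifi203 (173920407 to 173942672, minus strand) stood at 5.43, 8.86 and 8.12 CPM in KO, against 14.9 and 4.11 CPM in WT. For both genes WT replicate 1 was the highest sample and WT replicate 2 lay near or below the lowest KO sample, so the groups overlapped. Their log2 fold changes were -0.36 (SE 0.51) for Mndal and -0.31 (SE 0.55) for Ifi203. Without WT replicate 1 these turned to 0.41 and 0.95, and without WT replicate 2 they were -0.76 and -0.88. The direction of both genes therefore depends on which WT sample is kept.

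Ifi211 and Ifi209 were scarce, and WT replicate 1 was again highest. Ifi211 (173896345 to 173913046, minus strand) held 6, 3 and 10 reads in KO, against 20 and 4 in the deep WT samples. Ifi209 (173630917 to 173647928, plus strand) held 9, 5 and 23 reads in KO, against 34 and 5 in WT. In CPM, WT replicate 2 was the lowest sample for both genes, so the groups overlapped. Fitted without a low-count filter, their log2 fold changes were -0.74 (SE 0.77) and -0.51 (SE 0.73) for Ifi211 and Ifi209. Without WT replicate 1 they were 0.48 and 1.08, and without WT replicate 2 they were -1.36 and -1.21.

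Ifi205 and Ifi213 were at the edge of detection. Ifi205 (174011998 to 174031810, minus strand), whose product is known in mouse macrophages as a regulator of the inflammasome adaptor ASC, held 1, 0 and 1 reads in KO, against 4 and 2 in the deep WT samples. The ratio of KO to WT rates was 0.234 with an exact counting interval of 0.0231 to 1.31, which includes no difference. With 8 reads in all and the spread between samples left out, this interval is a description and settles no direction. Ifi213 (173566283 to 173599274, minus strand) held 1 read in KO replicate 3 and none elsewhere, which gives no level in either group. The other 4 annotated Ifi200 genes, Ifi206, Ifi214, Ifi208 and the pseudogene Ifi203-ps, held no more than 2 reads in any sample. In all, 8 of the 10 members had 10 or more reads over the samples. KO lay below both deep WT samples in 2 of the 10 members, Ifi202b and Ifi205, and above both in 0, while 8 overlapped. Over all 22237 genes with reads the same was true of 4.28% (below) and 5.01% (above), and over the 12292 genes that passed the filter of 3.87% and 4.79%, and nothing is read from the members' count because the genotypes' difference chose the set.

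**Figure D3:**
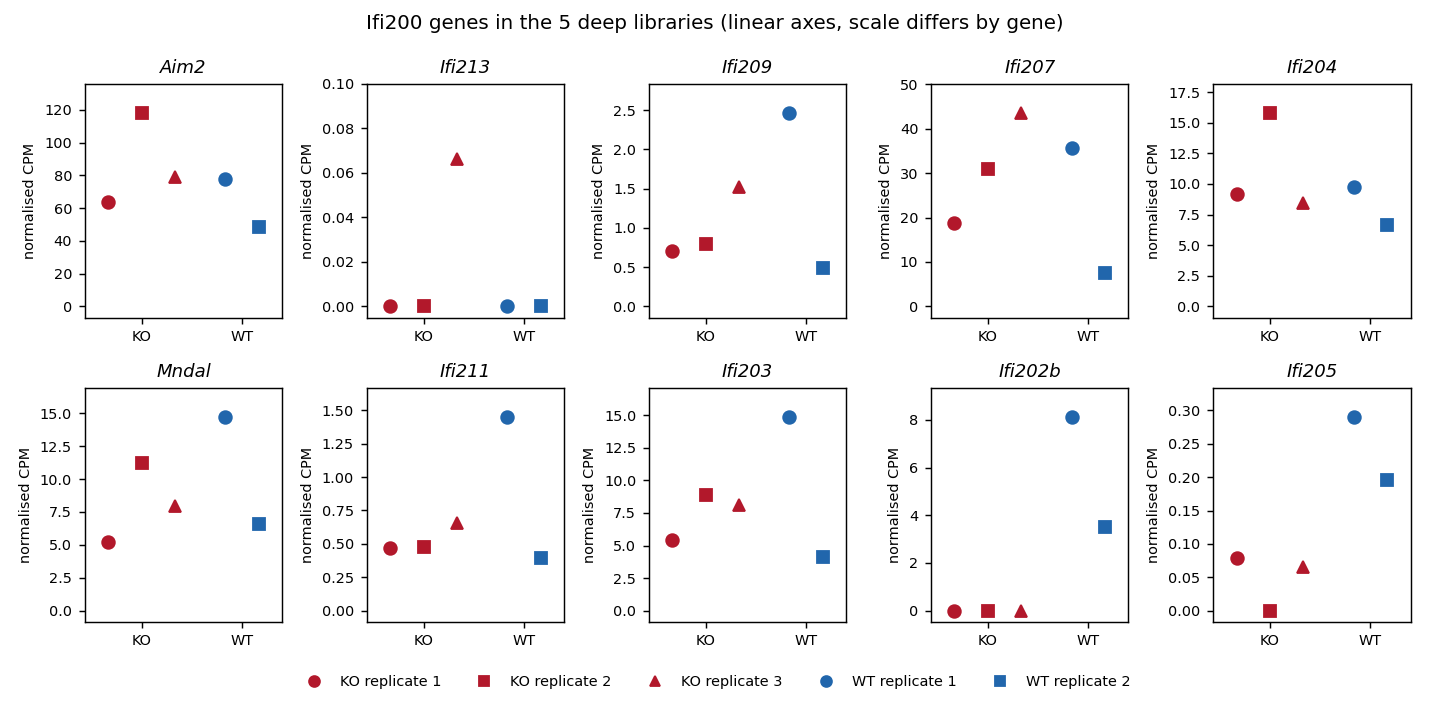
Each panel gives the normalised CPM of 1 member in the 3 KO and 2 deep WT samples, on linear axes that differ between panels, and WT replicate 3 is left out for its depth. Ifi202b lies at 0 in all 3 KO samples and at 8.13 and 3.52 CPM in WT, while the groups overlap in 8 of the 10 panels.

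Levels of different genes were compared per kilobase of annotated exon. Aim2 was highest and Ifi207 next in each of the 5 deep samples. Per kilobase, Aim2 stood at 18.2, 33.8 and 22.6 CPM in KO and at 22.3 and 13.9 CPM in WT, and Ifi207 at 5.52, 9.06 and 12.7 CPM in KO and at 10.4 and 2.17 CPM in WT. Ifi204 and Mndal followed in every KO sample, at ranks 3 and 4. In both deep WT samples rank 3 was taken by Ifi202b, with 4.79 and 2.08 CPM per kilobase, close to Mndal with 4.06 and 1.81 and to Ifi204 with 2.73 and 1.87. The neighbouring places of Ifi202b, Ifi204 and Mndal in WT lie within the difference between the 2 WT samples, as do those of Ifi211 and Ifi209 at the low end. These levels use the exon length of GENCODE M21 and do not correct for stretches that could not be read uniquely.

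**Figure D4:**
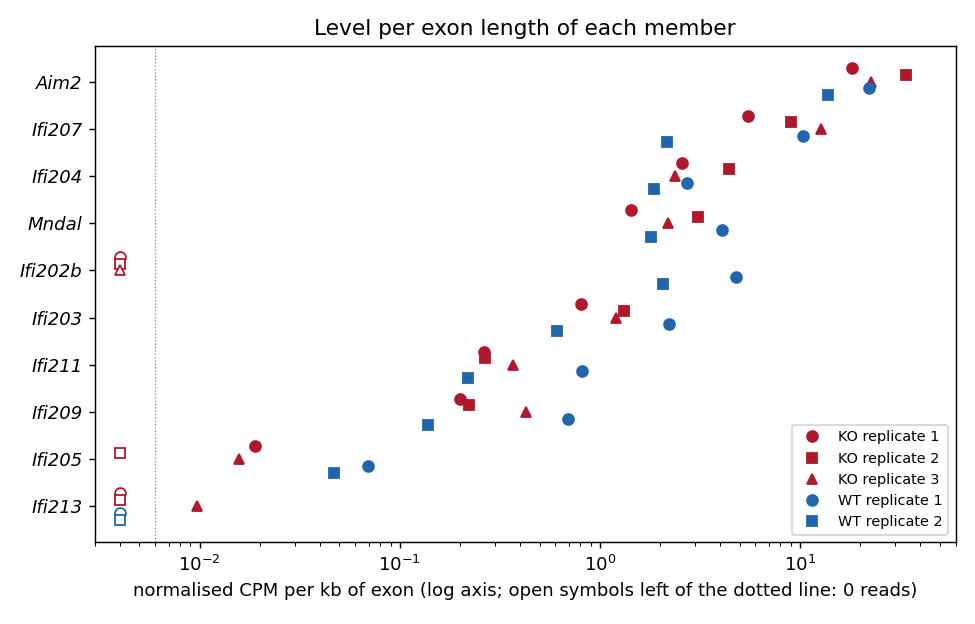
Points give normalised CPM per kilobase of exon for each member and deep sample on a log axis, ordered by the mean, with open symbols for 0 reads. Aim2 spans 13.9 to 33.8, Ifi202b is at 4.79 and 2.08 in WT and at 0 in KO, and Ifi205 and Ifi213 stay below 0.1.

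For Aim2 and Ifi204 the KO samples lay further apart than the deep WT samples, and for the other 5 members with at least 10 reads and reads in KO the WT samples did. All 8 members with at least 10 reads were higher in WT replicate 1 than in WT replicate 2, by 1.46-fold for Ifi204, 1.61-fold for Aim2, 2.31-fold for Ifi202b, 3.62-fold for Ifi203, 4.78-fold for Ifi207 and 5.04-fold for Ifi209. Among the 7 of these that KO samples expressed, the highest KO sample exceeded the lowest by 1.40-fold for Ifi211 to 2.31-fold for Ifi207. WT replicate 1 was the highest deep sample for 5 of the 8, KO replicate 2 for 2 and KO replicate 3 for 1, while WT replicate 2 was lowest for 6. Markers of cell types also differed between the samples. The summed level of 8 monocyte and macrophage markers, all of which had reads in each deep sample, was 7202, 4135 and 11980 CPM in KO replicates 1, 2 and 3 and 12230 and 4710 CPM in WT replicates 1 and 2. That of 9 neutrophil granule markers was 89000, 41120 and 35330 CPM in KO and 44860 and 99960 CPM in WT, with all 9 read in each. That of 8 mast cell and basophil markers was 3171, 9684 and 4175 CPM in KO and 5364 and 4677 CPM in WT. KO replicate 2, which had the highest Aim2 and Ifi204, also had the highest summed levels of mast cell and of dendritic cell markers. Single markers could differ from the sum, as the mast cell marker Fcer1a stood at 113.4 CPM in KO replicate 2 and 169.8 CPM in WT replicate 1. Mitochondrial genes took 15.7% of the gene reads of KO replicate 2, against 1.26% to 1.84% in the other deep samples. The part of cell makeup and RNA quality in the members' levels was not tested, and in bulk RNA fewer cells of a type and less RNA per cell cannot be told apart. The summed level of 7 dendritic cell markers was 407.6, 688.0 and 428.2 CPM in KO replicates 1, 2 and 3 and 324.5 and 445.0 CPM in WT. That of 5 erythroid markers was 4.62 to 40.0 CPM in KO and 6.82 and 57.7 CPM in WT. That of 6 lymphoid markers was 118.9 to 131.6 CPM in KO and 156.5 and 180.5 CPM in WT. Of these 6, 4 had reads in KO replicate 1 and 3 in each other deep sample. The T and B cell genes Cd3e and Ms4a1 had 0 reads in all 5 deep samples.

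Genes that act with the family showed no difference between the genotypes that passed the test. Across all genes, 0 of 12292 passed at an adjusted p of 0.05 (0.0%, edgeR), while before adjustment 178 lay under 0.05 (1.45%), made up of 152 higher in KO (1.24%) and 26 lower in KO (0.212%). DESeq2, run without the low-count filter on 22237 genes, called 1 gene, edgeR without that filter called 9, and limma-voom on the filtered genes called 0. In the filtered edgeR test Psip1 itself missed the threshold, so missing it does not show that a gene was unchanged. Of 39 interferon-stimulated genes, 33 were tested and 0 passed the adjusted threshold, with 1 at an unadjusted p under 0.05. Their median log2 fold change was -0.13, beside 0.01 for all genes tested. Ifi27l2a, named for its induction by interferon, stood at 4.01, 9.33 and 2.77 CPM in KO, against 1.45 and 2.35 CPM in WT (log2 fold change 1.49, SE 0.63, adjusted p = 1.0 by edgeR). For Ifi27l2a every KO sample lay above both deep WT samples. Of the 33 genes this held for 2, and every KO sample lay below both for 1, Ifih1. Over all genes tested the shares were 4.79% above and 3.87% below. Oas2, which makes the second messenger that activates RNase L, had a log2 fold change of 0.78 (SE 0.51). Rsad2, the antiviral enzyme viperin, had -0.90 (SE 0.68) and Ifih1, the RNA sensor MDA5, had -0.42 (SE 0.40). Rsad2 stood at 2.20, 2.69 and 5.81 CPM in KO, against 11.5 and 2.25 CPM in WT, so that WT replicate 1 was highest and WT replicate 2 lay beside the lowest KO sample.

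Interferon receptors and their signalling genes were tested in full, and 0 of 13 passed the adjusted threshold. None had an unadjusted p under 0.05, and the median was 0.01. Stat2, a factor that binds the response element with IRF9, was at 0.26 (SE 0.33), and Jak2, the kinase of the interferon gamma receptor, at 0.18 (SE 0.50). Ifngr1, a chain of that receptor, was at -0.26 (SE 0.34) and the factor Irf1 at -0.13 (SE 0.34). Among 19 names listed for DNA sensing and the inflammasome, 17 were matched and 16 tested, of which 0 passed the adjusted threshold. The unmatched names, Mb21d1 and Sting1, are other symbols of Cgas and Tmem173, which were matched. Of the 16, 0 had an unadjusted p under 0.05, and the median was 0.09. The pyrin gene Mefv was at -0.75 (SE 0.43), the kinase gene Ikbke at -0.36 (SE 0.39), the inflammasome sensor gene Nlrp1b at 0.74 (SE 0.63) and Irf3 at 0.28 (SE 0.41). Pycard, which encodes the adaptor ASC that AIM2 recruits, was at 0.08 (SE 0.35), and Casp1, the protease that the inflammasome activates, at 0.25 (SE 0.43). Both were named after their values were seen. DESeq2 and limma-voom called 0 genes in these lists.

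The chromosome around the cluster held 67 further annotated genes within 1 Mb of its ends, of which 23 had reads and 12 were tested. None of the 12 passed the adjusted threshold by edgeR, and the median log2 fold change was 0.08. Every KO sample lay above both deep WT samples in 4 of the 12 and below both in 1, against 4.79% and 3.87% of all genes tested. Of the 12, 3 had an unadjusted p under 0.05 by edgeR, all higher in KO, against 1.24% of all genes tested. DESeq2 and limma-voom also called 0. The 3 lie more than 1 Mb from Ifi202b, toward lower coordinates. Cfap45, a cilium gene, held 33, 26 and 35 reads in KO, against 14 and 8 in the deep WT samples (log2 fold change 1.71, SE 0.56). Gm37145 held 30, 30 and 24 reads in KO, against 15 and 7 (1.66, SE 0.64), and Slamf9, named after its values were seen, 50, 51 and 52, against 21 and 22 (1.48, SE 0.57). Each of these had an adjusted p = 1.0 by edgeR. Below 0 lay Cadm3, a cell adhesion gene next to Aim2, at -0.48 (SE 0.59), and Slamf8, a myeloid surface receptor gene close to Cfap45, at -0.45 (SE 0.53).

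**Figure D5:**
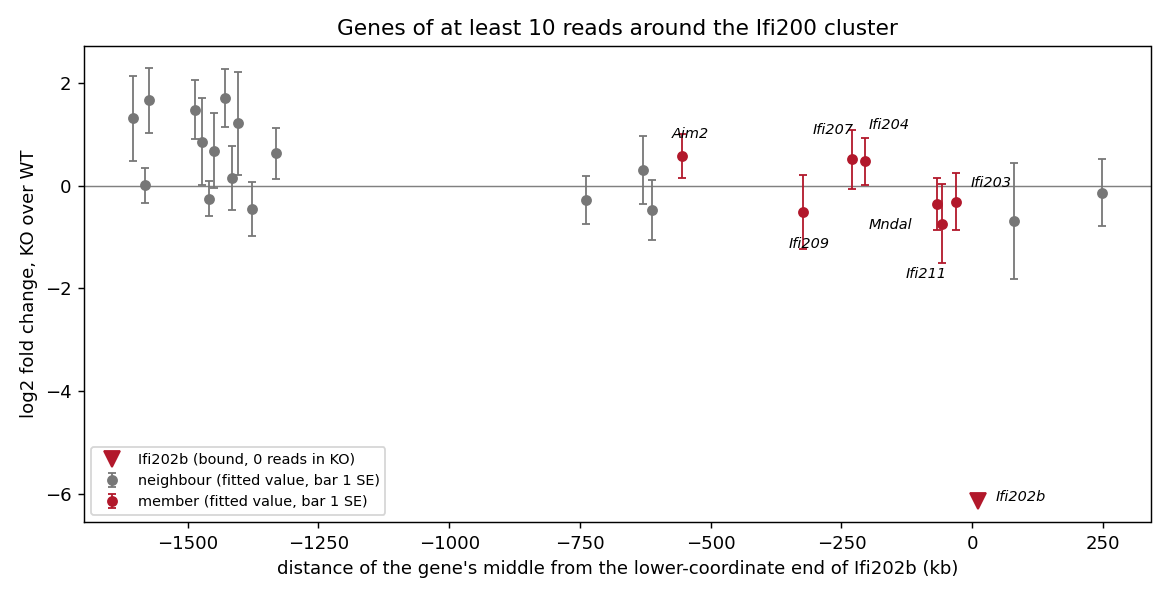
Points give the fitted log2 fold change (KO over WT, bars 1 SE) of genes with at least 10 reads against their distance from Ifi202b, members in red and other genes in grey, and the triangle gives the bound for Ifi202b. Members other than Ifi202b lie between -0.74 and 0.57, and the bound for Ifi202b lies at -6.13.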

How the data were processed

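Polyadenylated RNA of 6 samples was sequenced from TruSeq Stranded mRNA libraries, per the labels' protocols. The authors deposited raw read counts per gene, 1 table per sequencing run, with the layout of STAR's gene counter; STAR 2.5.1b, DESeq2 and GRCm38 are named per the submitters' processing notes, and read length and annotation release are not given in the sources used here. Column 4 (strand opposite to the read) was used, and both runs of WT replicate 3 were summed. The 4 rows that name no gene were left out; they held 25.6% to 47.8% of reads, and multimapping reads 14.4% to 27.0%. Identifiers were matched without their version to GENCODE M21, 46488 of 46983 in all.

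Counts were filtered (filterByExpr), TMM-scaled and tested with edgeR 4.0.16 (glmQLFit robust, glmQLFTest, two-sided, genotype only), adjusted over all tested genes; the procedure was tested on simulated data. SE is the log2 fold change over the root of F. Members under the filter took values from a fit without it. DESeq2 1.42.0 and limma 3.58.1 (voom) were alternatives. In every sample all 10 members were named, and otherwise the other Ifi200 genes with at least 10 reads, Psip1, the 2 genes of lowest p per direction and list at a mean of at least 1 CPM, and the 5 genes most like Ifi202b. Members and lists were chosen with earlier results of these data known.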

Additional observations from a re-analysis of the deposited data

How the results depend on the processing

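The number of genes called moved from 0 to 2 with library size only, 9 without a low-count filter, 1 with DESeq2 (also without that filter, on 22237 genes), 13 when WT replicate 3 was its smaller run alone and 13 with the replicate number as a block, and lay between 0 and 5 when 1 sample was left out. Between samples of equal replicate number, deviations from the group mean correlated at -0.29, -0.03 and -0.15. No sample correlated best with its own number (WT1 with KO3 0.40, WT2 with KO1 0.26, WT3 with KO2 0.13). With 3 samples a group and WT replicate 3 shallow, these values cannot show whether the samples were paired. The median log2 fold change of the 10 members was -0.33, with -0.66 by DESeq2, where the median of all 22237 genes was -0.32, against 0.08 by edgeR on the same genes, and between -0.82 and 0.89 when 1 sample was left out (lowest without WT replicate 2, highest without WT replicate 1). On leaving out 1 sample the list medians ranged from -0.22 to 0.21 for interferon-stimulated genes, from -0.042 to 0.43 for receptors and signalling, from -0.036 to 0.28 for DNA sensing and the inflammasome, and from -0.025 to 0.59 for the chromosome 1 neighbours. The highest values came without WT replicate 1 in the first 3 lists and without WT replicate 2 for the neighbours. No list member was called in any of the 16 alternatives. The sign turned on leaving out 1 sample for Rsad2 (-1.55 to 0.76), Jak2 (-0.065 to 0.72, and -0.0038 with limma-voom), Ifngr1 (-0.45 to 0.12), Irf1 (-0.36 to 0.20), Ikbke (-0.61 to 0.16), Slamf8 (-0.88 to 0.35) and Cadm3 (-0.95 to 0.056). Psip1 was lower in all 16, from -2.45 to -2.07, and passed in 3 of them. The cause of these changes was not tested. Depth limits the family mainly in WT replicate 3.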
